A study of Mus musculus with 18 samples.

Results

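Glutamate tRNAs bring glutamate to the ribosome. They come as 2 isoacceptors, tRNAs with the same amino acid and different anticodons: Glu-CTC, with anticodon CTC, and Glu-TTC, with anticodon TTC. The deposited count table held 147 tRNA rows in 54 anticodon families. Its rows named Glu followed by a digit were taken as members, which gave 5 of the 147 rows and 2 of the 54 families. Glu-CTC had 4 rows, Glu1, Glu3, Glu5 and Glu6, and Glu-TTC had 1 row, Glu7. Rows of 1 family are isodecoders, tRNAs that share an anticodon and differ elsewhere in the sequence.

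The study compared brains of male C57BL/6 mice aged 8 weeks, 3 wild-type (WT) and 3 Ftsj1 knockout (KO). FTSJ1 methylates ribose sugars in the anticodon loop of certain tRNAs. Each mouse gave 3 libraries: intact tRNA of the whole tissue (total), tRNA recovered from ribosomes (ribosome-contained) and shorter RNA of tRNA origin (fragment). The 6 groups of 3 libraries are therefore WT total, WT ribosome-contained, WT fragment, KO total, KO ribosome-contained and KO fragment, and the labels give no treatment of the animals. The labels say nothing of the Ftsj1 allele or of whether mice were littermates.

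Under stress, nucleases such as angiogenin cut tRNAs in the anticodon loop and leave a 5′ and a 3′ piece of about equal length. Glutamate, glycine, valine and lysine tRNAs are among the known sources of such pieces. Wobble bases are also modified: the first anticodon base of mammalian Glu-TTC carries a thiolated, methoxycarbonylmethylated uridine, whereas Glu-CTC has a cytidine there. Glu-CTC reads the codon GAG, and Glu-TTC reads GAA and can pair with GAG by wobble. RefSeq (GRCm38.p6) lists 12 mouse genes named for Glu-CTC and 8 for Glu-TTC, so a row stands for a mature sequence that many loci can encode. The rows carry no gene name or coordinate and were not matched to these genes.

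Sequencing depth ran from 1505291 to 2000422 tRNA reads for total libraries, from 406764 to 672127 for ribosome-contained ones and from 85323 to 151056 for fragments, so scarce rows are least precise there. Every value is a proportion within its own library. In whole brain, fewer cells of a type and less tRNA per cell cannot be told apart. The libraries count tRNA alone, so neither the tissue label nor the loss of Ftsj1 mRNA was checked. As a reference for the KO label, Phe-GAA, the best known FTSJ1 target, fell by 1.28 on the log2 scale in total tRNA (SE 0.07, edgeR adjusted p = 9.12e-19).

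Glu-CTC was among the most abundant tRNA families in every form and was the leading one among fragments. Its share of all tRNA reads in total libraries was 6.93%, 7.48% and 7.02% in the 3 WT mice and 7.21%, 7.09% and 7.74% in the 3 KO mice. In ribosome-contained libraries it was 5.09%, 4.95% and 5.15% in WT and 5.14%, 4.82% and 4.56% in KO. In fragment libraries it was 14.4%, 14.4% and 13.9% in WT and 13.1%, 13.1% and 13.9% in KO. The 3 forms did not overlap: each fragment share lay above each total share, and each total share above each ribosome-contained share. By mean share Glu-CTC ranked 3 of 54 in total tRNA of both genotypes, 4 in WT and 5 in KO ribosome-contained tRNA, and 1 in fragments of both.

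Glu-TTC was a middle-ranking family, at place 18 in WT and 17 in KO total tRNA, 19 in ribosome-contained tRNA of both genotypes, and 21 in WT and 22 in KO fragments. Its share of total libraries was 2.09%, 2.11% and 2.04% in WT and 2.00%, 2.02% and 2.02% in KO. In ribosome-contained libraries it was 2.15%, 1.88% and 2.05% in WT and 2.30%, 2.11% and 1.87% in KO. In fragment libraries it was 1.21%, 1.24% and 1.32% in WT and 1.16%, 0.982% and 1.14% in KO. All fragment shares lay below all shares of the other forms, and the total and ribosome-contained shares overlapped. Both families together made up 9.22% ± 0.322 of WT total reads, 7.09% ± 0.226 of WT ribosome-contained reads and 15.5% ± 0.252 of WT fragment reads (SD, n = 3 mice).

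**Figure D1:**
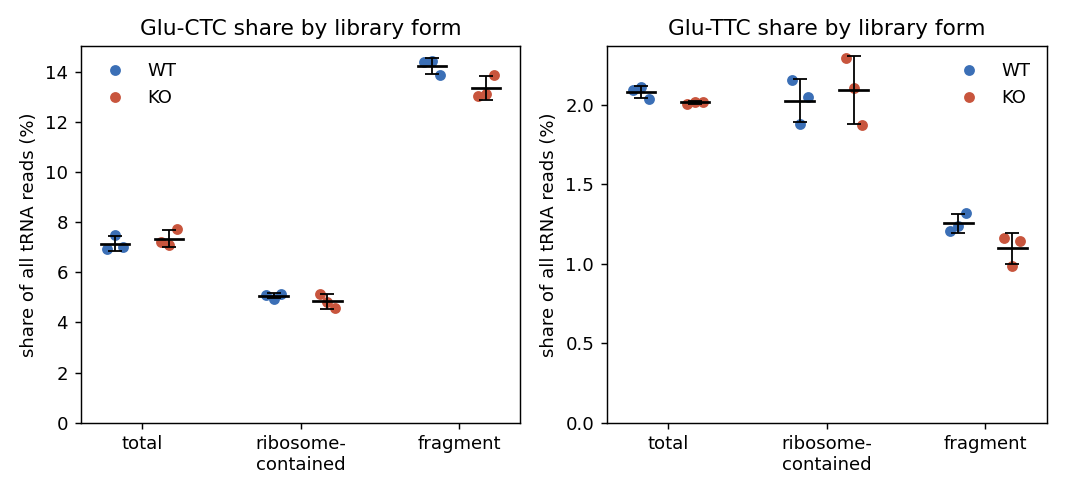
Share of all tRNA reads (%) of Glu-CTC (left) and Glu-TTC (right) in total, ribosome-contained and fragment libraries. Each point is 1 library, and bars give mean ± SD over 3 mice of a genotype. Glu-CTC is highest in fragments, at 13.1% to 14.4%, where Glu-TTC is lowest, at 0.982% to 1.32%.

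The split between the isoacceptors differed between the forms, and no difference between the genotypes passed the test. Glu-TTC took 23.2%, 22.0% and 22.5% of all Glu reads in WT total libraries and 21.8%, 22.2% and 20.7% in KO. In ribosome-contained libraries it took 29.7%, 27.6% and 28.4% in WT and 30.9%, 30.4% and 29.1% in KO. In fragment libraries it took 7.73%, 7.89% and 8.66% in WT and 8.18%, 6.96% and 7.60% in KO. The 2 genotypes overlapped in each form, and the forms did not overlap. This proportion compares the Glu families with each other alone, so no scaling of the libraries enters it.

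Within a mouse, Glu-TTC held 7.30 percentage points more of the Glu reads in ribosome-contained than in total libraries (SD 1.48, higher in 6 of 6 mice). It held 14.2 points less in fragments than in total tRNA, a mean difference of -14.2 (SD 0.926, lower in 6 of 6). Between fragments and ribosome-contained tRNA the mean difference was -21.5 points (SD 1.54, lower in 6 of 6). Each of the 3 differences had a two-sided exact sign-flip permutation p of 0.03125, the smallest that 6 mice allow, and an adjusted p of 0.03125. The gel selection and recovery of each form differed as well, so form and preparation cannot be told apart.

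Between genotypes the mean share of Glu-TTC within Glu differed by -1.03 points in total libraries (KO minus WT; 21.5% ± 0.755 against 22.6% ± 0.578). It differed by 1.55 points in ribosome-contained libraries (30.1% ± 0.933 against 28.6% ± 1.10) and by -0.511 points in fragments (7.58% ± 0.608 against 8.09% ± 0.497). The two-sided exact permutation p was 0.2, 0.2 and 0.4 (adjusted 0.3, 0.3 and 0.4), and 3 mice against 3 cannot go below 0.1.

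**Figure D2:**
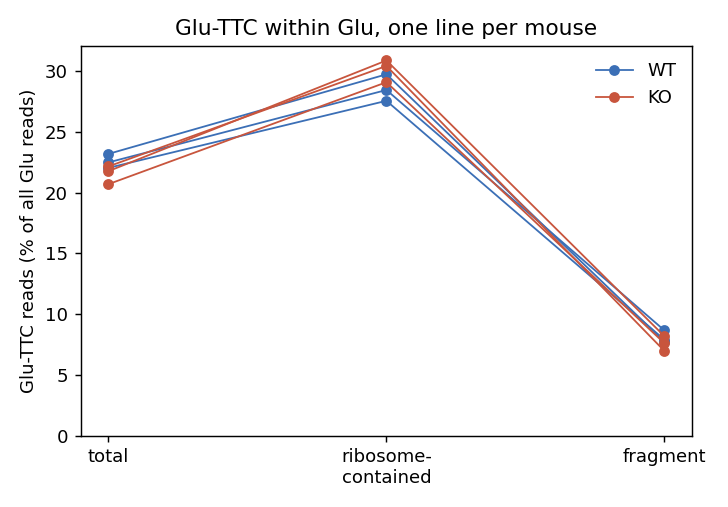
Glu-TTC reads as a percentage of all Glu reads in the 3 library forms, with 1 line per mouse. All 6 lines rise from total (20.7% to 23.2%) to ribosome-contained tRNA (27.6% to 30.9%) and fall to fragments (6.96% to 8.66%), and the WT and KO lines overlap.

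The 5 rows were very unequal, and Glu1 carried Glu-CTC. Over the 6 total libraries Glu1 had 722513 reads, Glu7 203984, Glu5 1838, Glu3 119 and Glu6 11. Glu1 made up 99.8% ± 0.0444 of Glu-CTC reads in WT total libraries, 98.9% ± 0.412 in WT ribosome-contained libraries and 97.0% ± 0.296 in WT fragments (SD, n = 3). In KO these were 99.7% ± 0.058, 99.2% ± 0.297 and 96.6% ± 0.237. Reads of near-identical isodecoders could have been split or shared in the counting, whose rule is not given in the sources used here. Values of single Glu-CTC rows are therefore less certain than those of the family sum.

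Glu3 was close to absent from intact tRNA and abundant among fragments. Its counts in total libraries were 13, 23 and 14 in WT and 25, 25 and 19 in KO, and in ribosome-contained libraries 5, 5 and 7 in WT and 4, 1 and 7 in KO. In the much smaller fragment libraries they were 544, 358 and 396 in WT and 711, 416 and 648 in KO. Every fragment library held more Glu3 reads than any total library, and the genotypes overlapped. In RPM, reads of a row per 1000000 tRNA reads of its library, Glu3 stood at 10.9 ± 3.56 in WT total, 10.2 ± 0.896 in WT ribosome-contained and 4260 ± 489.6 in WT fragment libraries (SD, n = 3). In KO the same levels were 13.1 ± 3.16, 7.44 ± 5.86 and 4481 ± 197. Within Glu-CTC, Glu3 thus went from 0.0151% ± 0.00426 of total reads to 2.99% ± 0.297 of fragment reads in WT, and from 0.0179% ± 0.00503 to 3.36% ± 0.238 in KO.

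Glu5 had the opposite profile, with few fragment reads and its highest level in ribosome-contained tRNA. In total libraries it had 102, 131 and 165 RPM in WT and 179.5, 248 and 264 in KO. In ribosome-contained libraries it had 430.2, 762 and 419 in WT and 262, 329 and 484 in KO. All 3 KO mice lay above all 3 WT mice in total tRNA, and the genotypes overlapped in ribosome-contained tRNA. Its fragment counts were 1, 1 and 1 in WT and 2, 0 and 3 in KO.

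Glu6 was near the limit of detection. It had 0 to 4 reads in each total library, 1 to 4 in each ribosome-contained library and 0 in all 6 fragment libraries. A count of 0 allows up to 9.90 RPM over the 3 WT fragment libraries and 7.60 over the 3 KO ones. These floors cover counting error alone, since PCR copies were not told apart. The filter on low counts removed Glu6 from every comparison. With no filter, edgeR gave it an adjusted p of 0.0121 in ribosome-contained against total tRNA of WT, on 9 and 2 reads over 3 libraries each, and it passed in no other comparison.

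**Figure D3:**
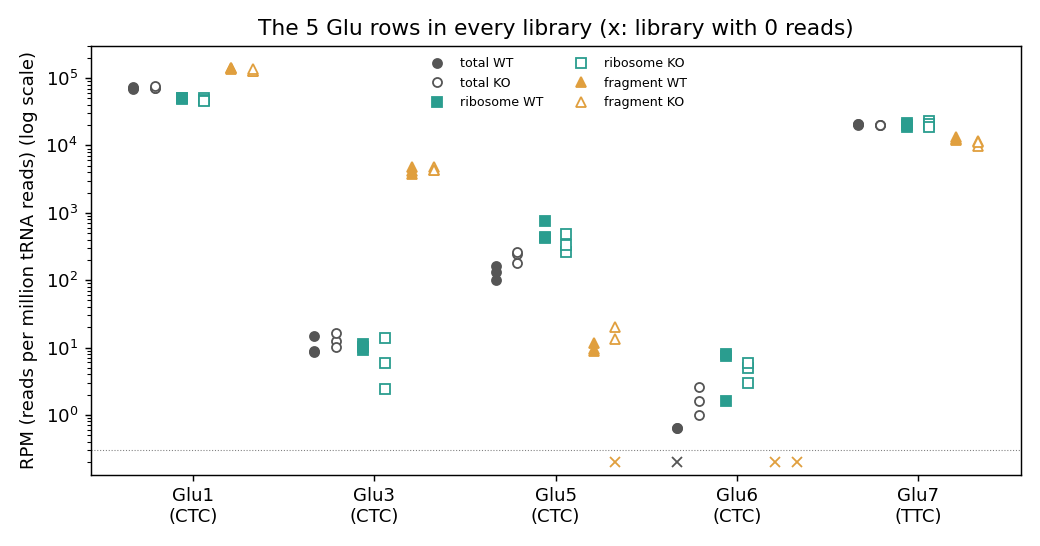
Level of the 5 Glu rows in every library, in RPM (log scale), by form (marker shape and colour) and genotype (filled WT, open KO), with crosses below the dotted line for libraries with 0 reads. Glu3 lies between 2.46 and 16.5 RPM in intact tRNA and between 3806 and 4779 in fragments, whereas Glu5 lies highest in ribosome-contained tRNA.

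The comparison of fragments with total tRNA sets the level of each tRNA among fragment reads against its level among intact reads. Both are proportions of separately prepared libraries, so it does not count the fragments that a tRNA gives. Glu-CTC was higher in fragments and Glu-TTC lower, in both genotypes. In edgeR's quasi-likelihood test the log2 fold change of Glu-CTC was 1.27 in WT (SE 0.06, adjusted p = 3.27e-12) and 1.04 in KO (SE 0.06, adjusted p = 4.23e-11). That of Glu-TTC was -0.46 in WT (SE 0.07, adjusted p = 7.99e-06) and -0.69 in KO (SE 0.07, adjusted p = 5.53e-08). Both members were called in both genotypes, where 85.7% of the 49 families tested were called in WT and 83.7% in KO, so a call by itself sets neither apart. Glu-CTC ranked 10 of 49 from the top in both genotypes, and Glu-TTC ranked 25 in WT, the middle of the list, and 29 in KO. The median over all 49 families was -0.46 in WT and -0.28 in KO, so relative to the median Glu-CTC was higher and WT Glu-TTC was level with it. With DESeq2's size factors this median was -0.14 in WT, and WT Glu-TTC at -0.14 did not pass (adjusted p = 0.0828). As a ratio of shares, fragments stood to total tRNA at 2.00 ± 0.077 for Glu-CTC and 0.603 ± 0.0378 for Glu-TTC in WT, and at 1.82 ± 0.0283 and 0.544 ± 0.0503 in KO (SD, n = 3 mice).

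Among single rows, Glu3 had the highest fold change of all 105 rows tested in fragments against total tRNA, in WT and in KO. Its log2 fold change was 8.40 in both (SE 0.17, adjusted p = 9.57e-20 in WT; SE 0.16, adjusted p = 4e-20 in KO), or 338-fold. Gly11, Asp3, Gly13 and Gly10, rows of glycine and aspartate tRNAs, followed in WT at 7.71, 6.56, 5.89 and 5.71. Each of these 5 rows had 46 to 639 reads over the 6 total libraries, so each was scarce as intact tRNA. A row too scarce in total tRNA for the filter, such as Gly11, was tested only because it was high in fragments. The top of this ranking, and the scarcity of its rows, can therefore follow in part from the filter. Glu3 was 2.99% of Glu-CTC fragment reads in WT, beside 97.0% for Glu1. Whether the counting of near-identical isodecoders adds to the Glu3 fold change was not tested. Glu1 was higher in fragments (0.76 in WT and 0.79 in KO, SE 0.075 each). Glu7 was lower at -0.93 (SE 0.09) in WT and -0.90 (SE 0.09) in KO. Glu5 was lower at -3.93 (SE 0.64) in WT and -4.19 (SE 0.50) in KO, on 3 and 5 fragment reads. Its pooled ratio of fragment to total level was 0.0744 in WT (exact 95% interval 0.0153 to 0.219) and 0.0555 in KO (0.018 to 0.13), which covers counting error alone. All 4 tested Glu rows were called in each genotype, where 80% of the rows tested were called in WT and 86.7% in KO. The scaling was estimated separately for rows and families, so Glu7 and Glu-TTC, which are the same reads, have different fold changes.

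Of the other families known as sources of cleaved tRNA, 3 were used as a scale for these ratios. The ratio of fragment share to total share was 2.71 ± 0.087 for Gly-GCC, 0.902 ± 0.0138 for Val-CAC and 3.02 ± 0.221 for Lys-CTT in WT (SD, n = 3), and 2.51 ± 0.217, 0.792 ± 0.0814 and 2.78 ± 0.218 in KO. Within a mouse the Glu-CTC ratio was 1.37-fold lower than that of Gly-GCC (mean log2 difference -0.45, SD 0.09) and 1.52-fold lower than that of Lys-CTT (-0.60, SD 0.11). It was 2.26-fold higher than that of Val-CAC (1.18, SD 0.12). The Glu-TTC ratio was 4.56-fold lower than that of Gly-GCC (-2.19, SD 0.14), 5.06-fold lower than that of Lys-CTT (-2.34, SD 0.14) and 1.48-fold lower than that of Val-CAC (-0.56, SD 0.08). Each of the 6 differences had 1 sign in 6 of 6 mice, with an exact sign-flip permutation p of 0.03125 and an adjusted p of 0.03125.

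**Figure D4:**
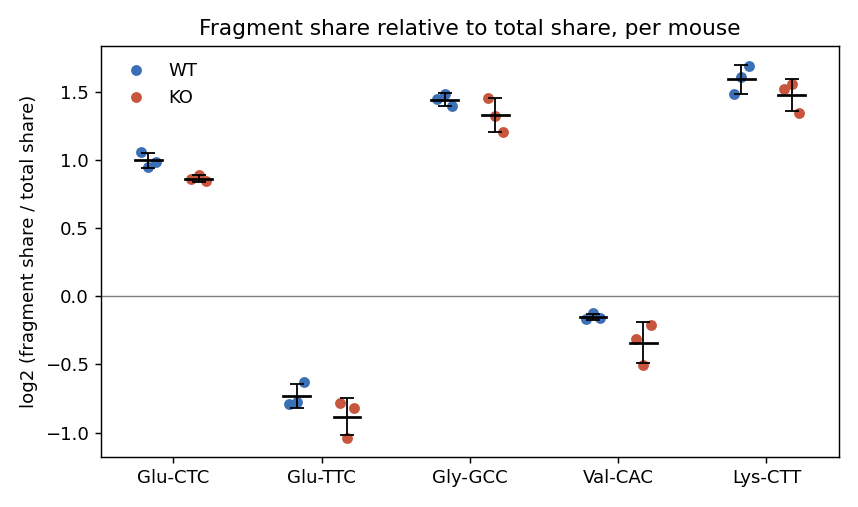
Log2 ratio of fragment share to total share for the Glu families and 3 other families known as sources of cleaved tRNA. Each point is 1 mouse, bars give mean ± SD over 3 mice, and 0 marks equal shares. Glu-CTC lies above 0 and below Gly-GCC and Lys-CTT, and Glu-TTC lies lowest of the 5 shown. Val-AAC and His-GTG, often cleaved but not shown, were lower than Glu-TTC in edgeR's comparison of fragments with total tRNA.

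A list of 9 often cleaved families held Glu-CTC, Glu-TTC, Gly-GCC, Gly-CCC, Val-AAC, Val-CAC, Lys-CTT, His-GTG and Asp-GTC. In fragments against total tRNA 5 of them were higher and 3 lower in WT, beside 18 higher and 24 lower of all 49 families. The counts were again 5 and 3 in KO, beside 17 and 24 of 49. The 8 called of 9 are near the share called over all families. The list's median log2 fold change was 0.43 in WT and 0.48 in KO, beside -0.46 and -0.28 over all 49 families. WT values in the list ran from -1.88 for His-GTG to 3.18 for Gly-CCC, and Val-AAC at -1.37 also lay below Glu-TTC at -0.46. Of 3 families with a thiolated wobble uridine, Lys-TTT was higher in fragments (0.31 in WT, 0.27 in KO), and Glu-TTC and Gln-TTG were lower (Gln-TTG at -3.05 in WT and -3.45 in KO). The 3 families of that list therefore did not share a direction.

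In ribosome-contained against total tRNA, a comparison of tRNA held by ribosomes with the tissue's pool, Glu-CTC was lower and Glu-TTC did not pass. The edgeR log2 fold change of Glu-CTC was -0.55 in WT (SE 0.12, adjusted p = 3.07e-05) and -0.59 in KO (SE 0.12, adjusted p = 9.69e-06). That of Glu-TTC was -0.09 in WT (SE 0.10, adjusted p = 0.398) and 0.07 in KO (SE 0.10, adjusted p = 0.498). Without WT mouse 1 the KO value of Glu-TTC turned to -0.18 and passed (edgeR adjusted p = 0.0482). So 1 of 2 members was called in each genotype, where 74.5% of families were called in WT and 80.4% in KO. The ratio of ribosome-contained share to total share was 0.709 ± 0.0419 for Glu-CTC and 0.975 ± 0.0746 for Glu-TTC in WT, and 0.661 ± 0.0639 and 1.04 ± 0.110 in KO (SD, n = 3). Of the often cleaved list, 4 members were higher and 3 lower in each genotype, beside 19 and 19 of all 51 families in WT and 21 and 20 in KO. The list's median was -0.09 in WT and 0.20 in KO, beside 0.06 and 0.16 over all 51. Of the thiolated list, Lys-TTT was lower (-0.77 in WT and -0.88 in KO), and the other members did not pass.

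Of the 4 Glu rows tested, Glu5 had a positive fold change in ribosome-contained against total tRNA in both genotypes, and it passed in WT. Its log2 fold change was 1.55 in WT (SE 0.22, adjusted p = 3.01e-07 in edgeR) and 0.27 in KO (SE 0.22, adjusted p = 0.277). Scarce rows were higher there as a group: among the 52 rows with under 5000 reads over the 6 total libraries, Glu5 included, the median was 1.52 in WT and 0.72 in KO, with 36 higher and 2 lower in WT, beside medians of -0.52 and -0.50 over the 66 abundant rows. In total tRNA alone 35 scarce rows passed the filter, so others entered through their ribosome-contained reads. That selection, and a bound set on total reads, themselves favour a positive median among scarce rows. Glu1 was lower in both genotypes (-0.96 in WT and -0.95 in KO, SE 0.11 each), and Glu3, on 1 to 7 reads a ribosome-contained library, did not pass (-0.53 in WT, adjusted p = 0.326, and -1.11 in KO, adjusted p = 0.0654, in edgeR). KO Glu3 passed in 2 of 13 alternatives, without KO mouse 3 (-2.01, edgeR adjusted p = 0.0154) and in limma-voom (-1.21, adjusted p = 0.0245). Glu7 was called lower in this row fit (-0.48, SE 0.11, in WT and -0.29, SE 0.11, in KO), although the same reads did not pass as Glu-TTC in the family fit. Scaling by total reads and by factors estimated within each form ended the Glu7 call in WT (-0.04 and -0.14) and turned its direction in KO (0.05 and 0.16). The same scalings brought KO Glu5 past the threshold (0.63, edgeR adjusted p = 0.0329, and 0.73, adjusted p = 0.00347). The median over all 118 rows rose with total reads from 0.14 to 0.59 in WT and from -0.02 to 0.33 in KO. Leaving out WT mouse 1 (-0.25, edgeR adjusted p = 0.127) or KO mouse 2 (-0.31, adjusted p = 0.131) also ended the KO Glu7 call, as did DESeq2's size factors (-0.23, edgeR adjusted p = 0.0676) and DESeq2 itself (-0.23, adjusted p = 0.0904), so it held in 7 of 13 alternatives. Of the 4 Glu rows tested 3 were called in WT and 2 in KO, where 80.5% and 66.9% of 118 rows were called.

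Neither Glu family passed the test between KO and WT in any of the 3 forms. In total tRNA the log2 fold change of KO over WT was 0.01 for Glu-CTC (95% interval -0.16 to 0.17, edgeR adjusted p = 0.944) and -0.08 for Glu-TTC (-0.20 to 0.04, adjusted p = 0.498), where 8.16% of 49 families were called. In ribosome-contained tRNA it was -0.06 for Glu-CTC (-0.21 to 0.09, edgeR adjusted p = 0.624) and 0.05 for Glu-TTC (-0.13 to 0.22, adjusted p = 0.697), where 22.4% were called. In fragments it was -0.09 for Glu-CTC (-0.21 to 0.02, edgeR adjusted p = 0.231) and -0.19 for Glu-TTC (-0.35 to -0.03, adjusted p = 0.0728), where 26.1% of 46 were called. These intervals are approximate estimates of the size of an effect and can be narrower than the edgeR test allows. A p above the threshold does not show that the genotypes were equal. Glu-TTC had non-overlapping genotypes by share in total tRNA (2.08% ± 0.0392 in WT, 2.01% ± 0.00835 in KO) and in fragments (1.25% ± 0.0568 in WT, 1.10% ± 0.0989 in KO), each with an exact permutation p of 0.1, the smallest possible. The row Glu1 was separated as fully in fragments (exact permutation p = 0.1). How many of all families were separated so was not counted, so the separation does not set Glu-TTC apart. Without WT mouse 1, Glu-TTC in fragments passed (-0.23, edgeR adjusted p = 0.0368).

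In the same KO comparisons, 0 of the 9 often cleaved families passed in total tRNA or in fragments in edgeR, and 1 rose and 1 fell in ribosome-contained tRNA, beside 4 of 49, 12 of 46 and 11 of 49 called over all families in total, fragment and ribosome-contained tRNA. An unadjusted p under 0.05 was found for 1 of the 9 in total tRNA (12 of all 49), 1 in fragments (17 of all 46) and 2 in ribosome-contained tRNA (17 of all 49). DESeq2 called 0, 0 and 2 of the 9, beside 4, 13 and 14 of all families in that order, and limma-voom 0, 0 and 2, beside 5, 14 and 10. Their median log2 fold change was 0.006, -0.09 and 0.03 in total, fragment and ribosome-contained tRNA, beside 0.03, -0.04 and 0.04 over all families tested. Of the 3 thiolated families, edgeR called 0 in each form. Their unadjusted p was under 0.05 for 1 in total tRNA, 2 in fragments and 0 in ribosome-contained tRNA, and DESeq2 called 1 of them in fragments and limma-voom 0. The values were 0.06, 0.14 and -0.07 for Lys-TTT and 0.20, -0.08 and 0.20 for Gln-TTG in total, fragment and ribosome-contained tRNA.

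The difference of the KO effect between forms was tested directly. In fragments relative to total tRNA, the KO effect on Glu-CTC differed by -0.22 on the log2 scale (SE 0.08, edgeR adjusted p = 0.0477) and that on Glu-TTC by -0.23 (SE 0.09, adjusted p = 0.0634), where 32.7% of families were called. The median over all 49 families was -0.19, so Glu-CTC lay 29 of 49 from the top, and its call ended under another scaling: -0.06 with factors estimated within each form (edgeR adjusted p = 0.653) and -0.13 with total reads (adjusted p = 0.238). It held in 3 of 13 alternatives, and leaving out WT mouse 1 (-0.17, edgeR adjusted p = 0.213), WT mouse 2 (0.0836), WT mouse 3 (0.11), KO mouse 1 (0.0604) or KO mouse 2 (0.0588) ended it. Glu1, nearly all of Glu-CTC, had 0.03 in the row fit (SE 0.10, edgeR adjusted p = 0.961). By ratio of shares, Glu-CTC fragments stood to total at 2.08, 1.93 and 1.98 in the WT mice and 1.81, 1.85 and 1.80 in the KO mice, without overlap (exact permutation p = 0.1, the smallest possible). Val-CAC was separated as fully (0.902 ± 0.0138 in WT, 0.792 ± 0.0814 in KO, exact permutation p = 0.1), and Gly-GCC and Lys-CTT overlapped (p = 0.3 each). The share over all families was not counted. In ribosome-contained relative to total tRNA, the KO effect on Glu-CTC differed by -0.04 (SE 0.16, edgeR adjusted p = 0.89) and that on Glu-TTC by 0.16 (SE 0.14, adjusted p = 0.571), where 0% of 51 families were called. In that comparison 11 of the 51 families had an unadjusted p under 0.05 in edgeR, and DESeq2 called 7 and limma-voom 2.

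Glu5 was the one Glu row called between genotypes. In total tRNA it was 1.62-fold higher in KO (log2 fold change 0.69, SE 0.15, edgeR adjusted p = 0.000109), where 17.8% of 101 rows were called. Its mean level was 133 ± 31.3 RPM in WT and 230 ± 44.8 in KO (SD, n = 3; exact permutation p = 0.1, the smallest possible). Leaving out WT mouse 2 ended the edgeR call (0.67, adjusted p = 0.0781), and so did leaving out KO mouse 2 (0.65, adjusted p = 0.0696) and KO mouse 3 (0.58, adjusted p = 0.0973). In total tRNA Glu1 was at -0.06 (SE 0.08), Glu7 at -0.15 (SE 0.08) and Glu3 at 0.15 (SE 0.46), and none of these passed in edgeR. DESeq2 called Glu7 lower (-0.15, adjusted p = 0.0267), and limma-voom did not (adjusted p = 0.168).

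In ribosome-contained tRNA, Glu5 did not pass in the other direction (-0.53, SE 0.25, edgeR adjusted p = 0.198). None of the 3 Glu rows tested there passed, where 3.88% of 103 rows were called, and none of the 3 tested in fragments passed, where 12.3% of 81 were called. In fragments Glu1 was at -0.10 (SE 0.05), Glu7 at -0.19 (SE 0.08) and Glu3 at 0.07 (SE 0.10). Unadjusted p-values in edgeR were under 0.05 for Glu5 in ribosome-contained tRNA (0.0385) and Glu7 in fragments (0.0384), and neither DESeq2 nor limma-voom called a Glu row in these forms, though DESeq2 gave Glu5 no adjusted p. Without KO mouse 3, Glu1 in fragments passed (-0.13, edgeR adjusted p = 0.0146). The KO effect on Glu5 differed between ribosome-contained and total tRNA by -1.28 (SE 0.31, edgeR adjusted p = 0.0178), where 5.93% of 118 rows were called. The ratio of its ribosome-contained to its total level was 4.21, 5.83 and 2.55 in the WT mice and 1.46, 1.33 and 1.84 in the KO mice, without overlap (exact permutation p = 0.1, the smallest possible). How many of all rows were separated so was not counted. Leaving out WT mouse 2 ended this edgeR call (-0.93, adjusted p = 0.293), as did leaving out KO mouse 2 (-1.11, adjusted p = 0.138). No Glu row was called for the difference between fragments and total tRNA, where 8.57% of 105 rows were called.

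Glu5 is scarce, and the scarce rows as a group lay on the same side of 0 as Glu5 in both comparisons. Of the 35 rows tested in total tRNA with under 5000 reads over the 6 libraries, 9 passed in edgeR, Glu5 among them, each higher in KO, with a median log2 fold change of 0.52. Of the 66 rows at or over 5000 reads, 1 rose and 8 fell, with a median of -0.05. For the difference between ribosome-contained and total tRNA, 6 of the 52 scarce rows passed in edgeR, each lower and Glu5 among them, with a median of -0.68, beside 1 of 66 abundant rows, which was higher, with a median of 0.008. The bound of 5000 reads was chosen after the values were seen. The 52 scarce rows are more than the 35 of total tRNA because some passed the filter through their ribosome-contained reads. Their median is therefore no independent background for Glu5. The part of scarcity in the Glu5 result was not tested.

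**Figure D5:**
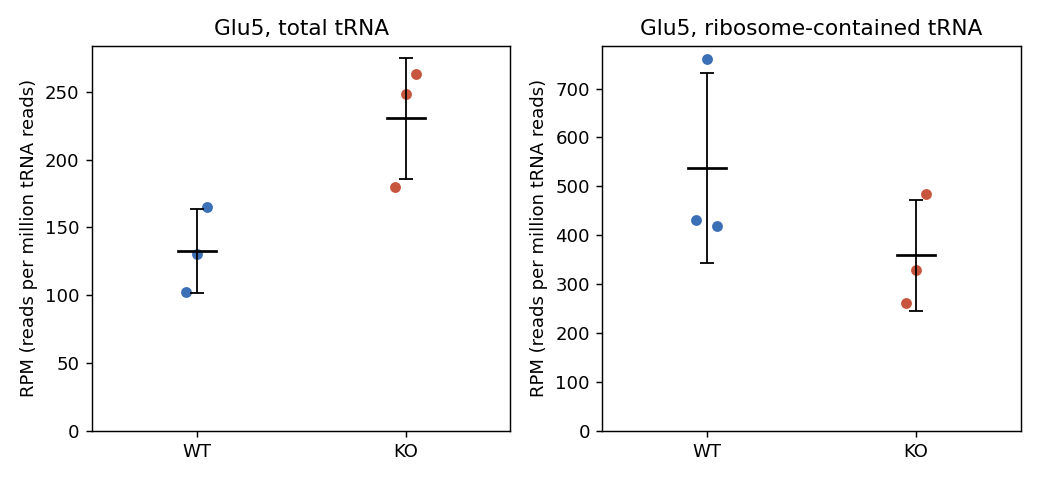
Glu5 in RPM in total (left) and ribosome-contained (right) libraries of WT and KO mice. Each point is 1 mouse and bars give mean ± SD over 3 mice. In total tRNA the KO mice (179.5 to 264) lie above the WT mice (102 to 165), and in ribosome-contained tRNA the genotypes overlap.

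The families whose share followed that of Glu-CTC most closely over the 18 libraries, among 45 compared, were Lys-CTT (Pearson r of log2 share 0.981), Arg-CCT (0.980) and Arg-ACG (0.972). Those most like Glu-TTC were Ser-AGA (0.976), His-GTG (0.969) and Gln-TTG (0.968). Glu-CTC and Glu-TTC ran against each other (r = -0.886). The 18 libraries fall into the 3 forms and come from 6 mice, so these values describe mostly the step between forms.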

How the data were processed

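tRNA of mouse brain was counted in 18 libraries: 3 WT and 3 Ftsj1 KO mice, each in total, ribosome-contained and fragment form. Per the labels' protocols, tRNA and fragments were cut from gels of total RNA, ribosome-contained tRNA came from ribosome profiling, and the demethylase AlkB was used to clear modifications that block reverse transcription before a 3′ adaptor library was made. The authors deposited 1 table of counts, read numbers per tRNA row and library per the file headers. The submitters' processing notes name Bowtie2. Its version, the reference and build, and how reads matching more than 1 tRNA were counted are not given in the sources used, and no nuclear tRNA sequence or coordinate is printed. Counts depend on ligation and reverse transcription, so modification enters them as well as amount. A ribosome-contained column headed K3 was taken as KO mouse 3. No read lengths or ends were used here.

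From the counts, rows were summed to 54 families. Shares are percentages of a library's tRNA reads. Families and rows were each tested whole by edgeR's quasi-likelihood test (R 4.3.3, edgeR 4.0.16, TMM, filterByExpr minimum count 10, Benjamini-Hochberg, threshold 0.05), within a form over 6 libraries and between forms over 12 libraries in 4 groups. The main fits between forms had no term for mouse, so the pairing of forms within a mouse did not enter their p-values. Standard errors were the absolute log2 fold change over the root of F, and the 95% interval is 1.96 errors each way. With few libraries this interval is approximate and can exclude 0 where the unadjusted edgeR p is above 0.05. Shares were compared by two-sided exact permutation tests (SciPy 1.17.1). Where KO and WT mice are said not to overlap, the share of all families or rows that did the same was not counted. pandas 2.3.3 and matplotlib 3.10.9 served tables and plots. Scripts were tested on simulated data. DESeq2 1.42.0, limma-voom 3.58.1, other scalings, no filter, a replicate block and leaving out each mouse were alternatives. The replicate block was the mouse number in fits within a form and the mouse itself in fits between forms. The labels tie the 3 forms to 1 mouse by name. KO and WT mice share numbers only. The labels say nothing of separate extraction days, so p-values measure the spread between these mice and their libraries. Replicate libraries of each group differed beyond sampling noise, so none was taken as deposited more than once.

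Named are both families, every Glu row, 9 often cleaved and 3 thiolated families, and for each Glu family the 3 most alike. The members and lists were chosen with earlier results of these data known. Gly11, Asp3, Gly13 and Gly10 were named after their values were seen.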

Additional observations from a re-analysis of the deposited data

Results flagged for a closer look

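The KO effect on Glu-CTC differed between fragments and total tRNA by -0.22 on the log2 scale (edgeR adjusted p = 0.0477). All families tested had a median of -0.19 in the same comparison. The call held in 3 of 13 alternatives, and Glu1, nearly all of Glu-CTC, was at 0.03 in the row fit (edgeR adjusted p = 0.961).

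The KO effect on Glu5 differed between ribosome-contained and total tRNA by -1.28 (edgeR adjusted p = 0.0178), with a ratio of ribosome-contained to total level of 4.19 ± 1.64 (SD) in 3 WT mice and 1.54 ± 0.265 in 3 KO mice. The 52 scarce rows tested, Glu5 included, had a median of -0.68, and some of them passed the filter only through their ribosome-contained reads.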

How the results depend on the processing

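Of 53 results given in the text, 25 kept their direction and side of the threshold in all alternatives run. The 9 exact tests of 3 mice against 3 are not counted, since they cannot pass under any setting. The 53 do include the paired sign-flip tests, between forms and of the Glu ratios against other families. With 1 mouse left out these tests cannot pass, since 5 mice cannot give a p below 0.0625. They kept their direction and count as changed for that reason alone. For them the count therefore does not measure dependence on the processing. The calls of Glu-CTC in fragments against total tRNA and in ribosome-contained against total tRNA, and that of Glu3 in fragments, held in all 13 alternatives in both genotypes. Values below are log2 fold changes unless given as points, and the cause of each change was not tested. With DESeq2's size factors, and with DESeq2 itself, Glu-CTC in KO total tRNA was -0.01, Glu-TTC in KO ribosomes against total was -0.04, WT Glu-TTC in fragments against total was -0.14, the difference of KO effects between fragments and total was -0.26 for Glu-CTC (adjusted p = 0.0695 and 0.0579) and -0.12 for Glu1. In DESeq2 Glu-TTC in that difference passed at -0.27 (adjusted p = 0.0461). With no filter these were -0.0036 for Glu-CTC in KO total tRNA, -0.01 for Glu-TTC in KO ribosomes and -0.20 for the Glu-CTC difference (adjusted p = 0.0727 in edgeR). With total reads the Glu-CTC difference was -0.13, Glu1 in KO total tRNA 0.04, KO Glu7 in ribosomes against total 0.05 and the Glu1 difference -0.14. With TMM within each form the Glu-CTC difference was -0.06, KO Glu7 in ribosomes against total 0.16 and the Glu1 difference -0.01. Leaving out 1 mouse at a time gave -0.04 to 0.05 for the KO effect on Glu-CTC in total tRNA, -0.01 to 0.11 for Glu-TTC in ribosomes and -0.25 to -0.11 for Glu-TTC in fragments. It gave -0.18 to 0.03 for KO Glu-TTC in ribosomes against total, -0.02 to 0.15 for the Glu-TTC difference between ribosomes and total, -0.26 to -0.17 for the Glu-CTC difference and -0.16 to 0.0032 for that of Glu1. KO total tRNA ranged from -0.02 to 0.44 for Glu3 and 0.53 to 0.86 for Glu5, and the Glu5 difference between ribosomes and total from -1.46 to -0.93. The KO difference in Glu-TTC share of ribosome-contained reads ranged from -0.0383 to 0.175 points. With 5 mice the exact permutation p cannot go below 0.0625, so no difference between forms could pass: Glu-TTC within Glu ranged from 6.94 to 7.65 points (ribosome minus total), -14.4 to -14.0 (fragment minus total) and -21.9 to -21.1 (fragment minus ribosome). The log2 ratio of Glu-CTC ranged from -0.47 to -0.43 against Gly-GCC, 1.13 to 1.20 against Val-CAC and -0.64 to -0.58 against Lys-CTT, and that of Glu-TTC from -2.22 to -2.16, -0.58 to -0.54 and -2.38 to -2.29. The replicate block was the mouse number in fits within a form, where KO and WT mice share only a number (correlation of their deviations -0.484 to 0.106). With it, Glu5 in KO total tRNA was 0.70 and Glu-CTC in fragments -0.10. In fits between forms the replicate block was the mouse itself, and the Glu-CTC difference was -0.22. No Glu call ended under the replicate block. Counts of called features moved by over 1.5 times: KO total rows from 18 to between 4 and 25 (4 without KO mouse 2, 25 with the block), KO total families from 4 to between 1 and 9, KO ribosome families from 11 to between 3 and 22, KO ribosome rows from 4 to between 3 and 24, KO fragment families from 12 to between 7 and 14, KO fragment rows from 10 to between 8 and 18, the fragment differences from 16 to between 8 and 17 families and from 9 to between 8 and 16 rows, and the ribosome differences from 0 to between 0 and 13 families and from 7 to between 0 and 17 rows. Depth limits Glu3 in intact tRNA, Glu5 in fragments and Glu6 in all forms.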
